A study of Solanum lycopersicum with 27 samples.

Results

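The 200 loci described here, out of 34688 in the count table, are leaf age markers chosen by their mean levels in developing and mature leaf at day 10 of the experiment. The choice rests on group means of day 10, so the name does not extend to mature leaf of other days. The libraries of the leaf ages also still overlap at some of the loci. For each locus the counts were scaled to CPM, the count divided by the library total and multiplied by 1000000, the group mean was taken, and the difference between young and mature leaf was computed as log2(CPM + 1), separately in plants labelled control and plants labelled water deficit. Loci with the same sign of that difference in both arms were ranked by the smaller of the 2 differences. The 100 highest on the young side are called young-high members, and the 100 highest on the mature side are called mature-high members. These differences chose the members, so they are given as a description and are not tested.

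The study followed leaves of wild-type tomato (Solanum lycopersicum, cultivar MoneyMaker) through a progressive drought that began when the plants were 50 days old. Control plants were watered to capacity every other day, and deficit plants received no water from then on. Mature leaf was sampled in both arms at days 4, 5, 8 and 10, and young developing leaf in both arms at day 10, with 3 libraries per group. The mature groups of day 8 in both arms and of day 10 in the control arm held 2. A mature library came from a single leaflet and a young library from an entire developing leaf, so leaf age and the part of the leaf sampled cannot be told apart. The labels do not say whether libraries of a group came from separate plants, so p-values measure the spread between these libraries, which may be technical.

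A tomato leaf begins as a sink that imports sugar while its cells divide and expand, and it becomes a source that exports sugar once its blades and its photosynthetic apparatus are complete. Genes of cell division, wall extension and cuticle deposition are typically high in the first phase, and genes of mature photosynthesis, transport and ageing in the later one. Water deficit slows growth and, through abscisic acid, alters many of the same genes, so leaf age and drought can act on shared transcripts. The locus identifiers in the table are not paired with gene names, and 0 of them matched the reference table of 41476 tomato genes. No role is therefore given to any member, and the leaf ages could not be checked against known marker genes. In whole leaves, fewer cells of a type and less RNA per cell cannot be told apart.

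Total counts per library ran from 14725924 to 19642202. Among the mature day 10 deficit libraries, replicate 1 stood apart from its 2 group mates, and the rule for choosing members leaves it out. At the young-high members it lay nearer to the day 10 control mean of mature leaf than to the mean of its own group mates in 89 of 100 cases, and at the mature-high members in 95 of 100. Its median distance from the control mean was 0.10 on the log2(CPM + 1) scale at the young-high members and 0.09 at the mature-high members. From its group mates these median distances were 0.62 and 1.25. All of these values were taken over the members alone, so whether other loci behave alike is not known. Because this library stood apart, every direction below is that of libraries labelled deficit relative to libraries labelled control.

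The members differed widely in the size of the age difference. Young-high members were higher in young leaf by 1.44 to 7.54 on the log2(CPM + 1) scale in the control arm, with a median of 2.24, and by 1.44 to 5.56 in the deficit arm, with a median of 2.16. Mature-high members had smaller differences, from -3.76 to -0.96 in the control arm with a median of -1.30, and from -2.99 to -0.94 in the deficit arm with a median of -1.40. Of 24366 loci with any count, 27.8% were higher in young leaf in both arms and 30.1% lower in both. The last young-high member inside the list had a smaller difference of 1.44, and the first locus outside it had 1.41. On the mature side the values just inside and just outside were both 0.94.

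Levels of the members covered a wide range. Group means of young-high members in young leaf ran from 1.95 to 2408 CPM in the control arm and from 2.07 to 1207 CPM in the deficit arm. In control mature leaf at day 10, 48 of the 100 young-high members had a mean below 1 CPM, and 3 had no count in either library. Mature-high members were all above 1 CPM in mature leaf at day 10, with medians of 18.6 CPM in the control arm and 24.2 CPM in the deficit arm without replicate 1. In young leaf their medians were 5.73 and 7.16 CPM. The age difference of young-high members was larger in the control arm at 61 loci and larger in the deficit arm at 39, and the arms differed by at least 1 on the log2 scale at 13 loci of the first kind and 3 of the second. Among mature-high members it was larger in the deficit arm at 64 and in the control arm at 36.

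**Figure D1:**
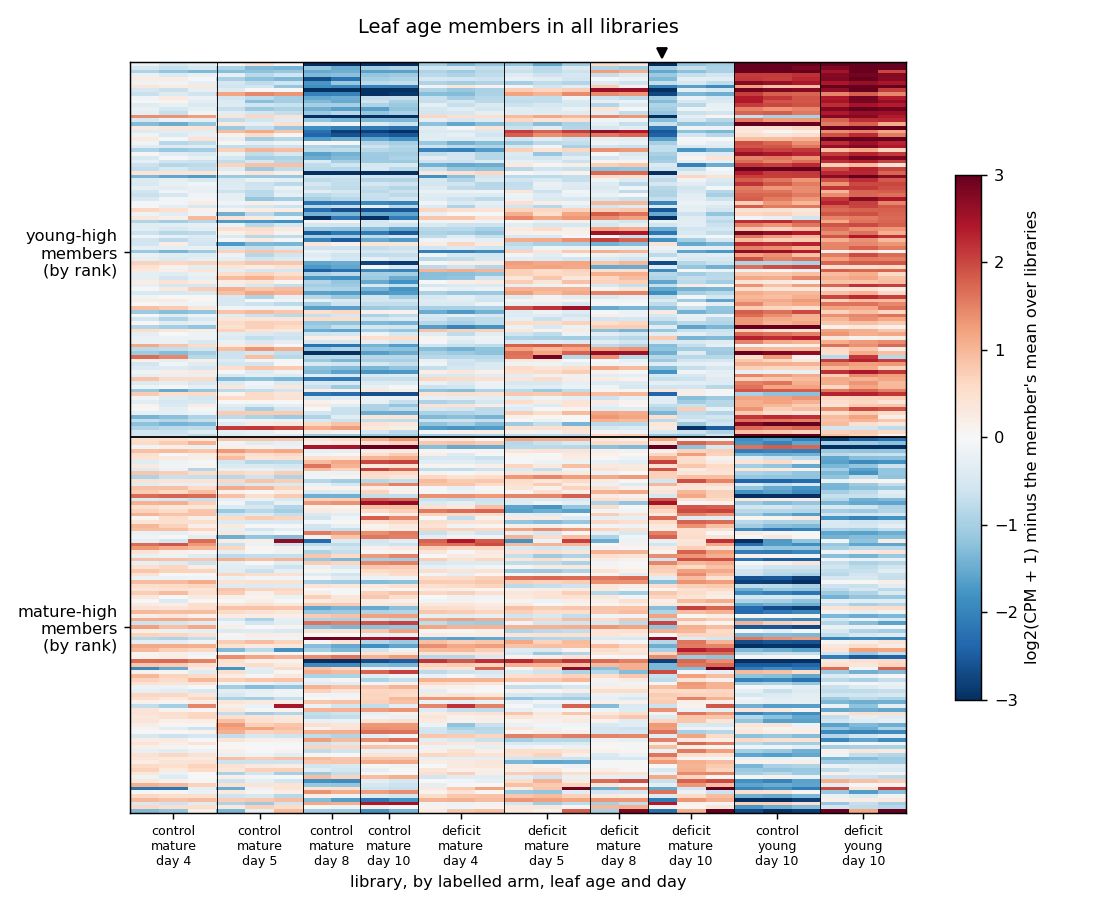
Levels of the 200 members in all 27 libraries, as log2(CPM + 1) minus the member's own mean over libraries (colour), with libraries in columns by labelled arm, leaf age and day and members in rows by rank within class. The triangle marks replicate 1 of the mature day 10 deficit group; the young-high rows turn blue in the control mature libraries of days 8 and 10, whose class medians were 1.51 and 1.26 CPM.

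The young-high member with the largest smaller difference was Solyc11g021060.2. In young leaf it had 236, 183 and 167 CPM in the control libraries and 121, 181 and 88.9 CPM in the deficit libraries. In mature leaf at day 10 it had 0.107 and 0 CPM in the control libraries, from 2 and 0 counts, and 2.95 and 3.40 CPM in deficit replicates 2 and 3. Young and mature libraries did not overlap in either arm, and the control mature values lay far below those of deficit mature leaf. Replicate 1 of the deficit group had 0.0524 CPM, from 1 count, a level of the control libraries.

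Solyc01g006540.4, the second young-high member, showed an age difference of nearly the same size in both arms. It had 80.7, 75.2 and 65.9 CPM in control young leaf and 64.6, 93.1 and 76.7 CPM in deficit young leaf. In mature leaf at day 10 it had 3.63 and 4.06 CPM under the control label and 4.84 and 3.87 CPM in deficit replicates 2 and 3. The differences were 3.95 in the control arm and 3.89 in the deficit arm. In all 16 mature libraries of days 4, 5 and 8 it stayed low, with group means from 2.80 to 5.41 CPM.

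On the mature side, Solyc01g162830.1 had the largest smaller difference. It had 42.5 and 50.7 CPM in control mature leaf at day 10 and 21.7 and 17.9 CPM in deficit replicates 2 and 3. In young leaf it had 4.68, 5.73 and 4.01 CPM in the control libraries and 1.77, 2.75 and 3.23 CPM in the deficit libraries. Both leaf ages were lower under the deficit label, and the differences between the ages were -3.04 and -2.54. With replicate 1, at 46.3 CPM, kept in the deficit group, that second value was -3.05.

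Solyc02g079550.3, the second mature-high member, was higher under the deficit label at both ages. Its mature levels at day 10 were 8.59 and 10.0 CPM in the control libraries and 22.1 and 18.4 CPM in deficit replicates 2 and 3. Its young levels were 1.03, 0.703 and 1.32 CPM in the control libraries and 2.38, 2.20 and 1.91 CPM in the deficit libraries. The groups did not overlap between the ages, and the differences were -2.35 and -2.75.

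The labelled arms also separated many members within each leaf age at day 10, which is described without a test because the rule used these libraries. In young leaf, 45 of the 100 young-high members had all 3 deficit libraries above all 3 control libraries, where 33.5% of loci with a count did, and 27 had them below, against 30.1%. In mature leaf without replicate 1, the numbers were 62 above, against 36.0%, and 16 below, against 29.9%. Mature-high members had 53 above and 34 below in young leaf, and 58 above and 32 below in mature leaf. The median difference between deficit and control, on the log2(CPM + 1) scale, was 0.42 for young-high and 0.45 for mature-high members in mature leaf. In young leaf it was 0.11 for young-high and 0.53 for mature-high members. Over all loci with a count it was 0 in both.

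Mature leaf of days 4, 5 and 8 was not used to choose members, and it was compared with young leaf of day 10 as a description, since the young libraries were used. In 55 of 100 young-high members all 6 young libraries lay above all 16 mature libraries of these days, where 1.13% of loci with a count did so. Among mature-high members all 16 mature libraries lay above the 6 young libraries in 18 of 100, where the background was 0.788%. Against the groups one at a time, the young-high members that did not overlap numbered 85 in control and 88 in deficit leaf at day 4, where 7.48% and 7.88% of loci did. At day 5 they numbered 75 and 74, against 9.71% and 7.22%. At day 8 the arms differed more, with 96 in control leaf against 14.8% and 67 in deficit leaf against 10.5%. The mature-high members that did not overlap numbered 59 and 61 at day 4, against 7.21% and 13.0%, then 50 and 55 at day 5, against 5.80% and 8.70%, and 59 and 61 at day 8, against 18.3% and 11.0%. The same 6 young libraries chose the members, so nothing is read from the excess over all loci or from the order of the classes. The left-out replicate 1 lay below all 6 young libraries at 96 young-high members, against 15.5% of loci, and above them at 70 mature-high members, against 15.9%.

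Levels of the young-high members in mature leaf moved apart between the arms over the days. The median over the 100 members of the group mean was 4.14 CPM in control and 3.44 CPM in deficit leaf at day 4, and 3.43 and 5.26 CPM at day 5. At day 8 it was 1.51 CPM in control and 5.26 CPM in deficit leaf. The libraries of day 8 did not overlap in this summary, with medians over members of 1.45 and 1.38 CPM in the control libraries and 5.06 and 4.68 CPM in the deficit libraries. As a share of the young level of the same arm, the median member stood at 9.41% in control and 22.0% in deficit mature leaf at day 8. In deficit leaf the members at 50% or more of the young level numbered 10 at first, on day 4, and 35 on both later days. The control numbers were 22, 26 and 4. Those at or above the young level itself numbered 0, 13 and 17 in deficit leaf and 11, 13 and 0 in control leaf. The deficit number at 50% was thus the same at days 5 and 8, while the control number was lower at day 8. The young level in all these shares is a value that the rule used, and the shares were not computed over all loci. They are a description, and nothing about the members is read from them. The day 10 shares are fixed by the choice of members and are not compared. Mature-high members stood at medians of 16.5 CPM in control and 18.1 CPM in deficit leaf at day 4, and at 12.6 and 15.4 CPM at day 8. Those at or above the young level of the same arm numbered 80, 80 and 98 in control leaf at days 4, 5 and 8. In deficit leaf the numbers were 92, 85 and 90. These too are a description.

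**Figure D2:**
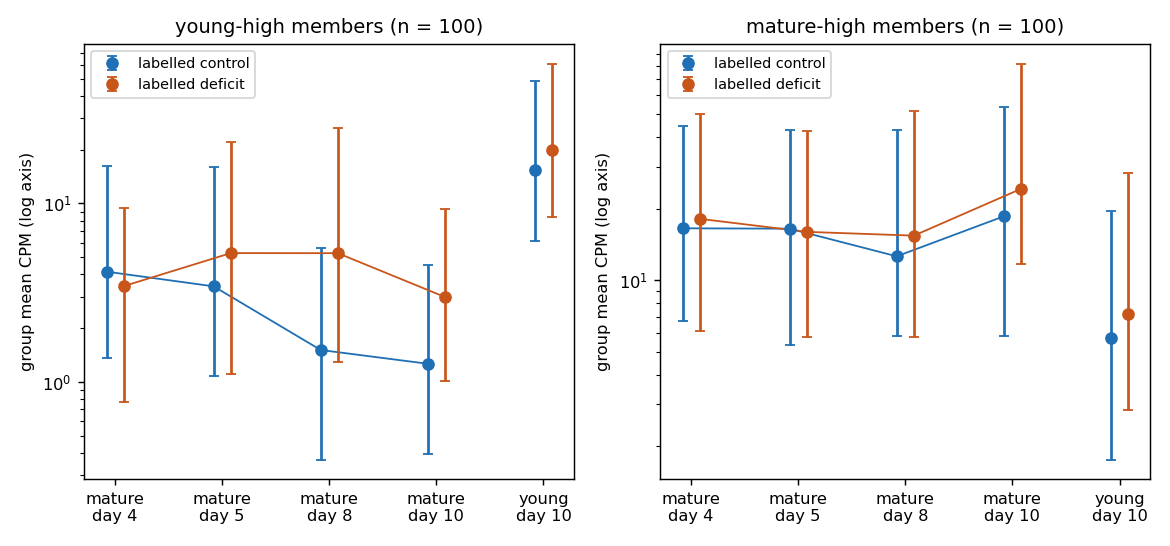
Median over the 100 members of each class of the group mean CPM (points, log axis), with bars from the first to the third quartile over members, for mature leaf by day and young leaf at day 10 (deficit mature day 10 without replicate 1). Young-high members in mature leaf stood at 1.51 CPM in control and 5.26 CPM in deficit leaf at day 8, below the young medians of 15.3 and 19.9 CPM.

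The first question tested was whether the members differed between the labelled arms in mature leaf, in the 16 libraries that the choice of members did not use. The libraries are separate, but the choice of members can carry over to them. Young-high members were chosen for low mature levels at day 10. Their medians at days 8 and 10 were 1.51 and 1.26 CPM in control leaf. In deficit leaf they were 5.26 and, without replicate 1, 2.99 CPM. How far the directions and the sizes of the changes at day 8 follow from the choice was not tested. A quasi-likelihood test in edgeR on all 18566 loci that passed the expression filter was used, and a locus was called at a Benjamini-Hochberg adjusted p below 0.05. All 100 mature-high members and 96 of the young-high members passed the filter. The 4 others stayed at or below 0.495 CPM in each of the 16 mature libraries and between 1.64 and 5.66 CPM in young leaf.

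At day 4, 40 young-high members that passed the filter were lower under the deficit label and 6 were higher, where 17.3% and 15.0% of all tested loci were called in these directions. Their median log2 fold change was -0.55, against -0.01 over all tested loci. Mature-high members were lower at 42 loci and higher at 11, with a median of -0.24. At day 4 members of both classes were thus called lower more often than higher. With all 27 libraries in the fit the calls were fewer, 25 young-high and 23 mature-high against 11.8% of all loci.

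At day 5 the directions were mixed. Of the young-high members 29 were higher and 20 lower under the deficit label, against 22.8% and 21.8% of all tested loci, and their median log2 fold change was 0.30. Of the mature-high members 32 were higher and 45 lower, with a median of -0.25. The 77 mature-high calls stood against a background of 44.6%. With all 27 libraries in the fit, 31 young-high and 46 mature-high members were called, against 27.8% of all loci.

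At day 8 the young-high members were mostly higher under the deficit label. There were 64 higher and 7 lower, where 38.2% of all tested loci were higher and 35.7% lower. The total of 71 called members, or 74.0% of those tested, was close to the background of 73.8%. The split between directions and the size of the changes departed from those of all tested loci. Young-high members were chosen for large age differences and low mature levels at day 10. How far that choice sets the split and the sizes was not tested. The median log2 fold change of the members was 1.75, against 0.02 over all tested loci. Of the 64, 60 or 93.8% were at least 2-fold higher, as were 49.7% of all loci called higher. Of the 7, 5 or 71.4% were at least 2-fold lower, as were 40.8% of all loci called lower. Without the expression filter, which lets all 100 members in, the count was also 64 higher and 7 lower. In that fit 58.4% of all loci were called.

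Mature-high members at day 8 were higher at 43 loci and lower at 32, near the 38.2% and 35.7% of all tested loci, with a median log2 fold change of 0.18. This split depended on how the members were chosen. When replicate 1 of mature day 10 deficit leaf was kept in its group mean, 60 of the 100 mature-high members stayed in the list, and the new list had 15 higher and 63 lower with a median of -0.93. The young-high list kept 89 members under that choice, with 70 higher and 3 lower and a median of 1.90.

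**Figure D3:**
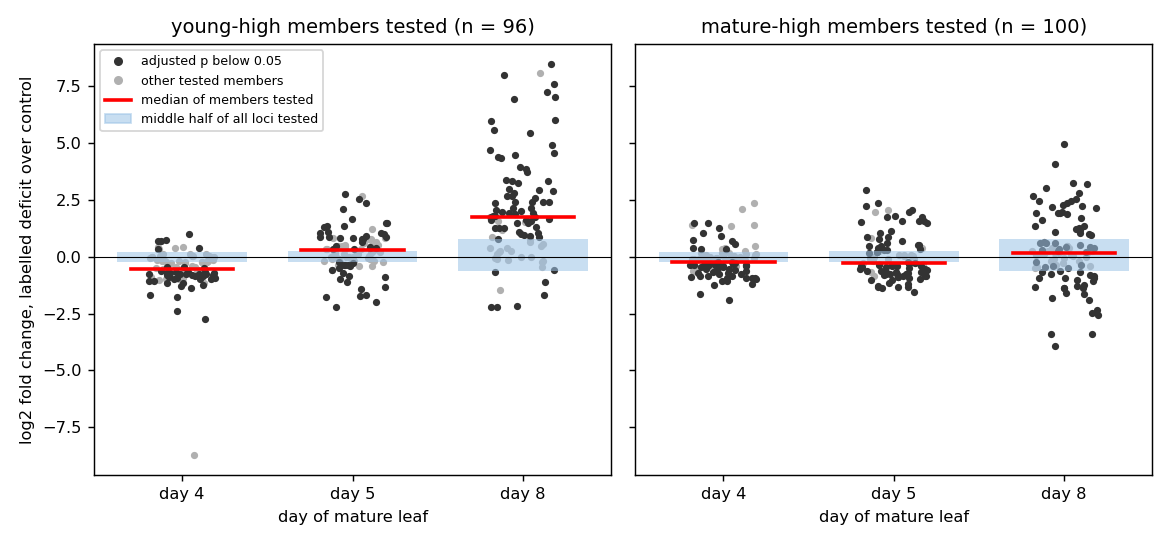
Log2 fold change of libraries labelled deficit over control in mature leaf at days 4, 5 and 8 (edgeR), each point a member that passed the expression filter, dark where the adjusted p was below 0.05. Red lines are medians of the members and blue bands run from the first to the third quartile of all 18566 loci; the young-high medians were -0.55, 0.30 and 1.75.

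The change of the difference between the arms from day 4 to day 8 was tested as an interaction. It was called at 81 young-high members, against 68.1% of all tested loci, 74 toward a higher relative level under the deficit label and 7 toward a lower one, where the background was 36.5% and 31.7%. The median change was 2.37 on the log2 scale, against 0.05 over all tested loci. Of the 40 young-high members lower at day 4, 30 were higher at day 8, 2 were lower again and 8 were not called. These are 75%, 5% and 20% of the 40, where of all 3211 loci lower at day 4 the shares were 44.7%, 33.8% and 21.5%. Mature-high members had 43 interactions toward higher and 29 toward lower levels, with a median of 0.18. With the list chosen with replicate 1 kept, these numbers were 21 and 55, with a median of -0.78.

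The change from day 4 to day 8 was then followed within each arm. These contrasts share their libraries with the comparisons of the arms above, so they describe the same data from another side. Young-high members were chosen for low mature levels at day 10, so falls to day 8 in control leaf can follow from the choice. How far they do was not tested. Each day was also a separate collection, so within an arm a difference between days and a difference between collections cannot be told apart. In control leaf 65 young-high members fell and 16 rose, where 36.5% of all tested loci fell and 34.4% rose, and their median log2 fold change was -1.46. In deficit leaf 51 rose and 8 fell, where 22.6% and 21.8% of all tested loci did, with a median of 0.74. The 81 called in control leaf stood against a background of 70.9%, and the 59 called in deficit leaf against 44.3%. Over all tested loci, called falls of at least 2-fold numbered 3069 in control and 587 in deficit leaf, and such rises 2085 and 446. Libraries labelled control thus changed more over these days than those labelled deficit, so the control arm is not a steady reference. The cause was not tested.

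Member by member, 37 young-high members fell in control leaf and rose in deficit leaf, which is 38.5% of those tested against 12.6% of all tested loci. Another 23 fell in control leaf and were not called in deficit leaf, or 24% against 18%. In both arms 10 rose, or 10.4% against 5.14%, and 5 fell, or 5.21% against 5.88%. The limit from the choice of members holds for these counts too. Mature-high members fell in control leaf at 53 loci and rose at 33, and in deficit leaf they rose at 35 and fell at 24. With all 27 libraries in the fit, 15 rose and 11 fell in deficit leaf, where 24.7% of all loci were called. With replicate 1 kept in the choice of members, the control counts of the mature-high list were 25 that fell and 64 that rose, while the young-high list had 75 that fell and 7 that rose.

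**Figure D4:**
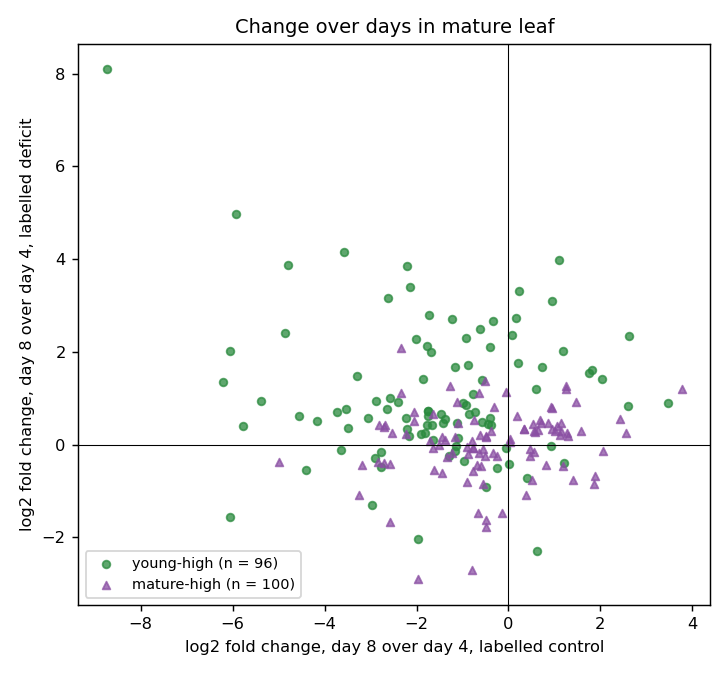
Log2 fold change from day 4 to day 8 in mature leaf labelled control (horizontal) and labelled deficit (vertical), each point a member that passed the expression filter. Many young-high members (circles) lie in the upper left, where 37 were called lower in control and higher in deficit leaf; mature-high members (triangles) spread around the centre.

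The members with the largest age differences behaved unlike each other in mature leaf of days 4 to 8. Solyc11g021060.2 had 7.09, 5.44 and 6.30 CPM in control and 3.36, 2.48 and 3.07 CPM in deficit leaf at day 4, a log2 difference of -1.16 (SE 0.17, adjusted p = 1.41e-05, edgeR). At day 5 it was lower under the deficit label again, by -1.79 (SE 0.17, adjusted p = 2.11e-09). At day 8 it had 12.3 and 10.3 CPM in deficit leaf and 0.124 and 0.0553 CPM in control leaf, from 2 and 1 counts, so the order of the arms had turned. Solyc01g006540.4 was called between the arms at day 5 alone of these days, with log2 differences of -0.14 at day 4 (adjusted p = 0.514, edgeR), 0.65 at day 5 (adjusted p = 0.0019) and 0.47 at day 8 (SE 0.22, adjusted p = 0.0513).

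The leading mature-high members differed between the arms in a direction that was not the same on all days. Solyc01g162830.1 differed by -0.28 on the log2 scale at day 4 (SE 0.08, adjusted p = 0.0131, edgeR), by 0.20 at day 5 (SE 0.08, adjusted p = 0.0472) and by -0.20 at day 8 (SE 0.10, adjusted p = 0.0835). Its change from day 4 to day 8 was not called in either arm. Solyc02g079550.3 differed by -0.05 at day 4 (adjusted p = 0.769, edgeR), by -0.63 at day 5 (SE 0.15, adjusted p = 0.00152) and by 0.42 at day 8 (SE 0.16, adjusted p = 0.0171). In control leaf Solyc02g079550.3 fell by 0.65 from day 4 to day 8 (SE 0.14, adjusted p = 0.000255, edgeR).

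The further members described one by one are those with the largest called changes among members that averaged at least 1 CPM over the 16 mature libraries and whose compared groups did not overlap. Members outside these limits can have larger fitted values. By that choice, the young-high member with the largest rise under the deficit label at day 8 was Solyc11g022590.1. It had 84.0 and 80.7 CPM in the deficit libraries and 0.248 and 0.387 CPM in the control libraries, from 4 and 7 counts. The log2 fold change was 8.00 (SE 0.22, adjusted p = 2.28e-20, edgeR quasi-likelihood test). At day 4 the order was reversed, with 8.88, 7.87 and 10.5 CPM in control and 6.44, 5.37 and 6.14 CPM in deficit leaf, a log2 difference of -0.68 (SE 0.13, adjusted p = 0.000249, edgeR). At day 5 deficit leaf was already the higher, with 22.6, 21.0 and 22.8 CPM against 9.76, 13.2 and 13.1 CPM. The day 8 deficit level was close to that of young leaf, which had 97.6 ± 5.90 CPM (SD, n = 3) in the control arm and 88.1 ± 28.3 CPM (SD, n = 3) in the deficit arm. At day 10 deficit mature leaf without replicate 1 was lower again, at 9.76 ± 1.03 CPM (SD, n = 2).

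The young-high member with the largest fall at day 8 by the same choice was Solyc06g160050.1, with 1.08 and 1.03 CPM in deficit against 4.52 and 5.47 CPM in control leaf. The deficit libraries lay below by -2.21 on the log2 scale (SE 0.33, adjusted p = 1.97e-06, edgeR). By that choice this locus also had the largest rise of the class in control leaf from day 4, where it had 0.525, 0.363 and 0.434 CPM, and rose by 3.48 on the log2 scale (SE 0.34, adjusted p = 2.00e-09). In young leaf it had 31.0 ± 7.85 CPM (SD, n = 3) under the control and 4.46 ± 1.22 CPM (SD, n = 3) under the deficit label. It ran opposite to most of its class.

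The largest fall of the class in control leaf from day 4 to day 8, chosen in the same way, was that of Solyc06g062370.4. It went from 19.9 ± 0.26 CPM (SD, n = 3) to 0.248 and 0.276 CPM, the last from 4 and 5 counts. The log2 fold change was -6.22 (SE 0.23) with an adjusted p of 6.45e-18 in edgeR. In deficit leaf it rose over the same days, from 18.9, 21.0 and 23.5 CPM to 50.7 and 50.9 CPM, by 1.36 on the log2 scale (SE 0.10, adjusted p = 8.92e-11). The arms overlapped at day 4 and were far apart at day 8.

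Among mature-high members, chosen likewise, the largest rise at day 8 was that of Solyc07g009380.5, with 293 and 260 CPM in deficit and 8.73 and 9.06 CPM in control leaf. The log2 fold change was 4.98 (SE 0.18, adjusted p = 1.14e-13, edgeR). The same locus had the largest fall of the class in control leaf, from 293, 297 and 259 CPM at day 4, a change of -5.00 (SE 0.18, adjusted p = 7.80e-14). In deficit leaf the mean went from 384 ± 47.6 CPM (SD, n = 3) to 276 ± 23.0 CPM (SD, n = 2), a change of -0.38 (SE 0.13, adjusted p = 0.0223, edgeR). The arms also stood apart in young leaf, with 5.28 ± 0.05 CPM (SD, n = 3) under control and 125 ± 10.1 CPM (SD, n = 3) under deficit. Deficit young leaf thus lay above control mature leaf of day 8.

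The largest fall of the mature-high class at day 8 by this choice was that of Solyc09g097760.3, the third mature-high member by rank. It had 6.34 and 5.90 CPM in deficit against 94.0 and 95.6 CPM in control leaf, a difference of -3.93 on the log2 scale (SE 0.14, adjusted p = 2.02e-18, edgeR). Control leaf had 15.9 ± 2.33 CPM (SD, n = 3) at day 4 and reached 221 and 257 CPM by day 10. In young leaf the arms were also far apart, with 52.4, 59.8 and 55.9 CPM under control and 0.548, 0.495 and 0.418 CPM under deficit. The mature-high pattern of this locus is thus one within each arm, since control young leaf lay above deficit mature leaf. Replicate 1 of the day 10 deficit group had 275 CPM, while replicates 2 and 3 had 6.47 and 10.9 CPM.

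Solyc04g071780.3 had the largest rise of the mature-high class in control leaf by the same choice. It had 63.0, 59.3 and 66.8 CPM at day 4 and 887 and 845 CPM at day 8, up by 3.77 on the log2 scale (SE 0.07, adjusted p = 8.79e-24, edgeR). In deficit leaf it went from 38.9, 35.7 and 37.9 CPM to 82.8 and 80.1 CPM, up by 1.21 (SE 0.07, adjusted p = 1.23e-12). Both arms rose, the control arm by more, and the interaction was -2.56 (SE 0.10, adjusted p = 5.35e-17, edgeR). In young leaf it had 307 ± 33.0 CPM (SD, n = 3) under control and 28.5 ± 1.28 CPM (SD, n = 3) under deficit. Control young leaf thus lay above mature leaf of both arms at day 4 and above deficit mature leaf at day 8.

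**Figure D5:**
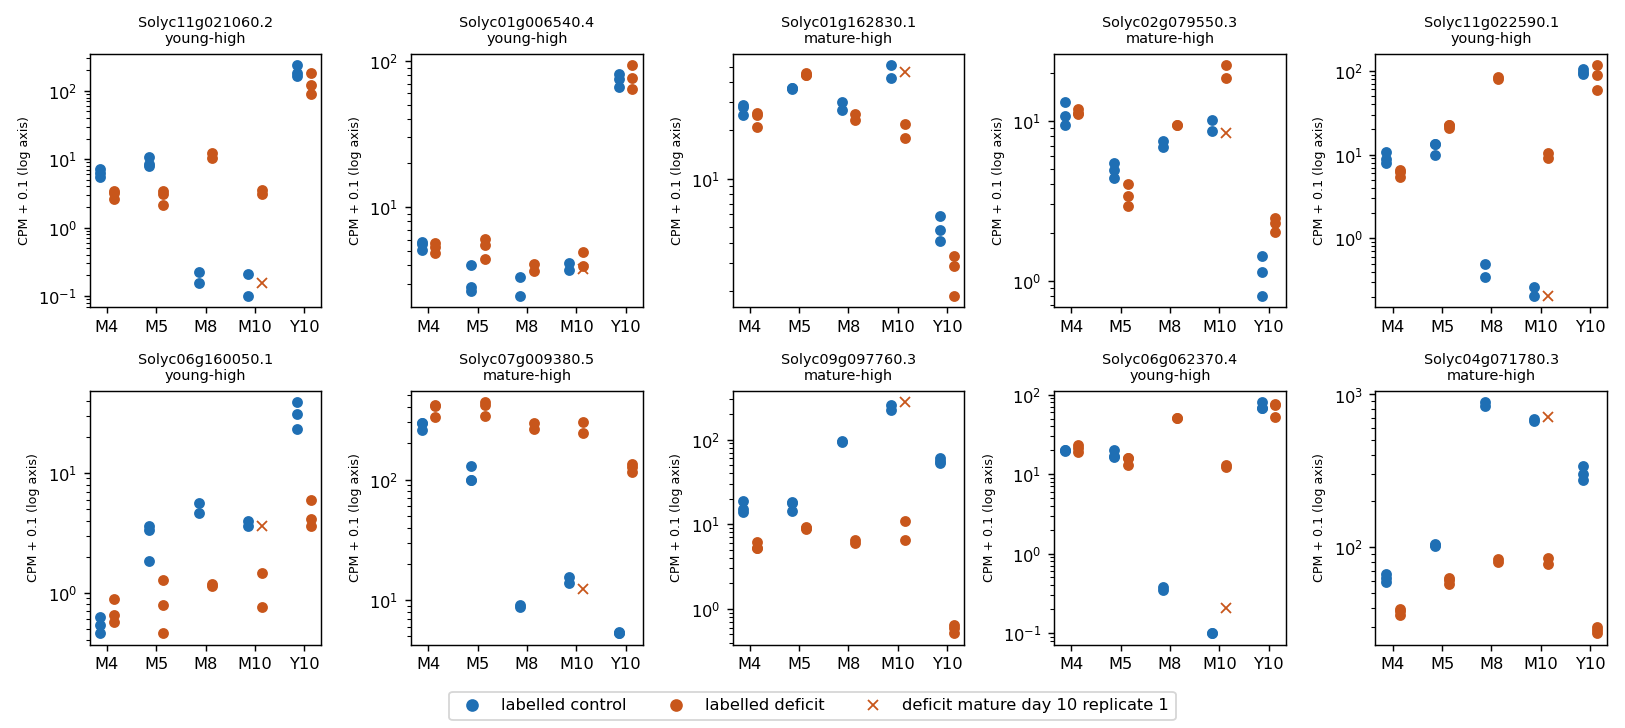
CPM + 0.1 (log axis) of the 10 named members in every library, for mature leaf at days 4, 5, 8 and 10 (M4, M5, M8, M10) and young leaf at day 10 (Y10), with control in blue and deficit in orange. The cross is replicate 1 of the mature day 10 deficit group, for example at 12.2 CPM for Solyc07g009380.5, where its group mates had 299 and 245 CPM.

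By their identifiers the members lay on all 12 chromosomes, and 6 carried identifiers of unplaced sequence (Solyc00g). Young-high members numbered from 5 to 12 per chromosome and mature-high members from 5 to 13. Of all loci with a count, single chromosomes held from 6.60% to 12.4%, and unplaced sequence held 1.24%. In the order of identifiers among loci with a count, 3 pairs of young-high members and 5 pairs of mature-high members were direct neighbours. Within 5 steps there were 9 and 6 such pairs, holding 16 and 12 members. Pairs were not counted for other sets of loci, so nothing is read from these numbers.

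The 6 members on unplaced sequence, 5 mature-high and 1 young-high, varied more between libraries of a group than the other 194. The SD within groups on the log2(CPM + 1) scale, pooled over groups and leaving out the library that stood apart, ran from 0.92 to 1.29 for these 6 and from 0.05 to 0.33 for the others. Over all loci with a count, 65 had an SD above 0.6, and 52 of these were among the 302 on unplaced sequence. The mature-high members Solyc00g500296.1 and Solyc00g277510.2 had similar counts in many libraries, such as 466 and 477 in control mature day 4 replicate 3. In control young replicate 1 they had 0 and 48. The 6 may thus not be independent of each other. Solyc00g500064.1, a young-high member singled out after its values were seen, had no count in 16 of the 27 libraries. In deficit young leaf it had 6.82 CPM in replicate 2 and 0 in replicates 1 and 3, so its age difference in that arm rests on 1 library. In deficit mature leaf at day 5 it had 4.43 and 12.0 CPM in replicates 1 and 2 and 0 in replicate 3. Solyc00g500206.1, the last mature-high member inside the list, had 24.0 and 285 CPM in deficit replicates 2 and 3 of mature day 10 and 90.6, 25.8 and 124 CPM in deficit young leaf, so the leaf ages overlapped in that arm.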

How the data were processed

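Polyadenylated RNA was sequenced in 27 libraries. The authors deposited whole-number read counts per locus, and these were used as raw counts because the columns sum to different totals. The aligner, counting tool, genome build and use of strand are not given in the sources used here, so how reads shared by similar or overlapping loci were assigned is unknown. DESeq2 is named in the submitters' processing notes. Groups came from sample titles, and columns were matched by sample description. The members and lists were chosen with earlier results of these data known. Tests used R 4.3.3 and edgeR 4.0.16 with TMM scaling (factors 0.942 to 1.05), filterByExpr, robust quasi-likelihood fits with 1 coefficient per group and Benjamini-Hochberg adjustment. The fit held the 16 mature libraries of days 4, 5 and 8, and 18566 loci with 99.97% of their counts. The SE was derived from each log2 fold change and its F statistic. The script was tested on simulated data. Precision is limited by 14725924 to 19642202 counts per library. Intervals cover counting error only.

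Named loci were, for leaf age, the 2 of each class with the largest smaller difference. For day 8 between the arms and for day 8 against day 4 in control leaf, they were the largest called rise and fall of each class with a mean of at least 1 CPM and no overlap between groups. Alternatives were RLE scaling, DESeq2 1.42.0, other filters, other sets of libraries, a replicate block, leaving out each library, and other settings of the rule.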

Additional observations from a re-analysis of the deposited data

Results flagged for a closer look

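The difference between the labelled arms changed from day 4 to day 8 at 81 of the 96 young-high members tested, by the interaction test in edgeR at an adjusted p below 0.05. It did so at 72 of the 100 mature-high members, where the background was 68.1%. The mature-high number was thus near the share of all tested loci. Of the loci named above, 9 were among the members called. Most of these were named for large differences at day 8 or large changes in control leaf, which enter this test. Their calls here are thus no separate result. The change was toward a higher relative level under the deficit label by 8.68 on the log2 scale at Solyc11g022590.1, 7.58 at Solyc06g062370.4, 4.62 at Solyc07g009380.5, 0.61 at Solyc01g006540.4 and 0.48 at Solyc02g079550.3. It was toward a lower level at Solyc06g160050.1 with -2.58, Solyc04g071780.3 with -2.56 and Solyc09g097760.3 with -2.30. At Solyc11g021060.2 the fitted change was 8.08, which rests on 2 and 1 counts in the control libraries of day 8 and is no bound. There the ratio of deficit to control levels at day 8 was 129 (exact 95% interval 44.0 to 630, from 429 and 3 counts).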

How the results depend on the processing

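Counts of called members stayed within 1.5 times under RLE scaling, DESeq2, other filters, the fit of 26 libraries and the fit of the compared groups only. With all 27 libraries in the fit, young-high calls between the arms numbered 25 at day 4 and 31 at day 5, mature-high calls 23 and 46, and mature-high calls from day 4 to day 8 in deficit leaf 26. Calls over all loci fell in that fit too, to 11.8% at day 4, 27.8% at day 5 and 24.7% from day 4 to day 8 in deficit leaf. The cause was not tested, and without replicate 1 of the mature day 10 deficit group in that fit no count moved this far. In the rule itself, a pseudocount of 0.1 CPM kept 65 young-high and 58 mature-high members, one of 5 CPM kept 63 mature-high members, and keeping that replicate 1 kept 60. Young-high members chosen with 0.1 CPM, a setting added after the data were seen, had 37 calls from day 4 to day 8 in deficit leaf. Of them 75 were tested, and 44.3% of all tested loci were called. Direction splits of the mature-high list under other choices are given above.

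Leaving out each library in turn gave these ranges. Between the arms, young-high calls ran from 38 to 46 at day 4 and 45 to 49 at day 5. Mature-high calls ran from 43 to 53 and from 70 to 73. Over all tested loci the share called ran from 23.7% to 34.8% at day 4 and from 39.4% to 41.7% at day 5. Comparisons with day 8 include fits that left 1 library in a group, so calls are not given for them. The log2 difference between the arms at day 8 ran from 7.72 to 8.38 at Solyc11g022590.1 and from -2.35 to -2.05 at Solyc06g160050.1. For Solyc07g009380.5 it ran from 4.91 to 5.06, and for Solyc09g097760.3 from -3.97 to -3.88. The lists kept 95 to 99 young-high and 90 to 98 mature-high members. Where this left 1 library in a day 8 group, that library is assumed to vary like the other groups. Whether replicate numbers pair the libraries is not settled. Deviations of same-numbered libraries of the arms correlated at -0.03 to 0.17. At day 4, 5 of 6 libraries correlated best with their own number, but at day 5 only 2 of 6 did. With a replicate block, 73 young-high members were called between the arms at day 8, 66 higher and 7 lower. In that fit 74.5% of all tested loci were called. Low counts limit the young-high class, since 46 of its 100 members had a mean below 1 CPM in control leaf at day 8.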
